A study of Mus musculus with 72 samples.

Results

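Liver RNA of germ-free (GF) wild-type (WT) mice was compared between ZT10, late in the light phase, and ZT22, late in the dark phase, where ZT (zeitgeber time) counts hours from lights on. The libraries were chosen by their labels alone, as WT, GF and ZT10 or ZT22, which gave 3 libraries at each time and 6 of the 72 libraries of the study. All 6 mice were C57BL/6 adult males of genotype Bmal1 fl/fl, raised without microbes in isolators and fed chow without restriction in a cycle of equal light and dark. The WT animals therefore carried loxP-flanked Bmal1, without a Cre, and the allele was shared by every group of the study. The other groups were Bmal1 fl/fl mice that also carried Albumin-cre (LKO), which removes Bmal1 in hepatocytes, and mice of both genotypes kept with their microbiota under specific pathogen-free (SPF) conditions. Livers of 18 mice a group were taken at ZT2, ZT6, ZT10, ZT14, ZT18 and ZT22, and polyadenylated RNA was sequenced. Here 6 SPF WT and 6 GF LKO libraries of ZT10 and ZT22 served only to show whether the same contrast differed in them. Each library was labelled as a separate replicate of its group and time, so each p-value measures the spread between such replicates.

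The mammalian clock is a feedback loop of transcription. BMAL1, listed in the files as Arntl, pairs with CLOCK or NPAS2 on E-box sequences and switches on the Per, Cry, Nr1d and Dbp genes, whose proteins then act back on the loop: PER and CRY block the activators, and the nuclear receptors NR1D1 and NR1D2 silence Arntl, Npas2 and Clock at elements they share with the activating ROR receptors. In liver this loop times glycogen, lipid, sterol, bile acid and drug metabolism against the daily rhythm of feeding, which in mice falls mostly in the dark. The comparison asks how far the late-day and late-night transcriptomes lie apart in a liver with its clock gene intact and with no microbes in the animal.

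The 6 libraries held 18938062 to 19871678 counts, within the range of the study (17369927 to 22076113), so depth differed little between the groups. Pearson's r of log2 CPM, which is counts scaled to the size of the library, was 0.9789 to 0.9878 between libraries of the same time and 0.9616 to 0.973 between libraries of different times. The 12 hepatocyte markers together held 164000 to 173000 CPM at ZT10 and 148000 to 202000 CPM at ZT22, which overlap, as did the summed levels of the macrophage (251 to 429 and 316 to 421 CPM), stellate cell, bile duct, lymphocyte, neutrophil, red blood cell, and pancreas, fat and muscle lists. The 10 endothelial markers summed to 254 to 288 CPM at ZT10 and 281 to 357 CPM at ZT22, also with overlap. Of the 8 neutrophil markers 1, and of the 10 pancreas, fat and muscle markers 3, had no count in the 6 libraries. Mitochondrial genes took 5.64% to 6.19% of counts at ZT10 and 7.07% to 8.07% at ZT22. This share did not overlap between the times, and its part in the results was not tested. In whole liver, fewer cells of a type and less RNA per cell cannot be told apart.

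Of 12624 genes with enough counts to test, 1306 differed between ZT10 and ZT22 at an adjusted p under 0.05 (10.3% of genes tested). Of these, 633 were higher at ZT10 (5.01%) and 673 were higher at ZT22 (5.33%), and 492 changed by 1 log2 unit or more in either direction (3.9%). The median log2 fold change over all genes tested was -0.01. The 3 libraries of ZT10 lay above all 3 of ZT22 for 1883 genes (14.9% of genes tested) and below them for 1993 (15.8%). With 1 library left out, 717 to 1289 genes were called, the fewest without replicate 2 at ZT10, and 831 were called without replicate 2 at ZT22. Most called genes coded for protein, 604 of those higher at ZT10 and 619 of those higher at ZT22, and long intergenic RNAs were 9 and 28 of them. Not called were 10535 protein-coding genes and 196 long intergenic RNAs. Levels below are in CPM, and differences are log2 fold changes of ZT10 over ZT22 with their standard error (SE), so that a positive value means higher at ZT10.

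Start sites of clock genes are shown first, because some of their sequences carry the letters through which the loop is known to work. Windows of 300 bases, 250 before and 50 after each start, came from RefSeq for GRCm38.p6 and were searched on both strands for the E-box CACGTG, the D-box TTATGTAA, bound by DBP, TEF, HLF and NFIL3, and the ROR element GTAGGTCA. By its letters a ROR element can share at most 2 bases with an E-box, and a D-box can share none with either. The E-box was in 7.15% of all 32851 windows, the D-box in 0.938% and the ROR element in 0.621%. Among genes with a window, the E-box was found for 78 of 483 called higher at ZT10 (16.1%), 55 of 495 called higher at ZT22 (11.1%) and 1011 of 8719 not called (11.6%). The ROR element was found for 3 of 483 (0.621%), 9 of 495 (1.82%) and 45 of 8719 (0.516%) in the same order, and the D-box for 5 (1.04%), 5 (1.01%) and 61 (0.7%). These shares are descriptions and were not tested, a match does not show a bound site, and no match says only that the letters are not in the window. Per2 and Bhlhe40 had no window in the table. The windows of Clock, Npas2, Rora, Cry2, Nr1d1, Nr1d2, Dbp and Hlf held no match to any of the motifs. Rgs16, Ppp1r3g and Usp2, with large changes toward ZT10, had windows without a match as well. The same held for Pitx3, Cdkn1a, Tubb2a, Loxl4, Chka, Slc30a10, Cldn1 and Clpx, all higher at ZT22.

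The windows below were chosen because each holds 1 of the motifs, printed in capitals, in a gene of the clock lists or among the largest changes. Per1, which was not called, and Ppp1r3c, higher at ZT22, also have an E-box in a window and are not shown. Position 1 is the annotated start and -1 the base before it. Ciart, a repressor of the activator pair, holds 3 E-boxes, which begin at -116, -58 and -44 (minus strand, chr3:95882179-95882478). Tef holds an E-box at -127 of its first start (plus strand, chr15:81802423-81802722) and another at -138 of a further start, which is not shown. Bhlhe41 holds an E-box at -153 (minus strand, chr6:145865371-145865670). All 3 genes were higher at ZT10. Cry1, with an E-box at -60 (minus strand, chr10:85185005-85185304), was higher at ZT22.
Ciart: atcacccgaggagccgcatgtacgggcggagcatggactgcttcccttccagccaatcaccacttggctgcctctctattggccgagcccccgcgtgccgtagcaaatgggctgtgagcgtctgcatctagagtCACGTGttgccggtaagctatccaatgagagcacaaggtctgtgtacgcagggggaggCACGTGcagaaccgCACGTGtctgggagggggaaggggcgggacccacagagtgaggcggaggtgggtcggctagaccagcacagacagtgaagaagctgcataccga
Tef: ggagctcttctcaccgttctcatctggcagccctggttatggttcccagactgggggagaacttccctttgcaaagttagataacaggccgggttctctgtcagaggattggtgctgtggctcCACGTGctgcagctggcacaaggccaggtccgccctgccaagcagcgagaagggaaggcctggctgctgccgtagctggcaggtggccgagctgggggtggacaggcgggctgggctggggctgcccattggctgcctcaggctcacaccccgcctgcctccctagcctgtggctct
Bhlhe41: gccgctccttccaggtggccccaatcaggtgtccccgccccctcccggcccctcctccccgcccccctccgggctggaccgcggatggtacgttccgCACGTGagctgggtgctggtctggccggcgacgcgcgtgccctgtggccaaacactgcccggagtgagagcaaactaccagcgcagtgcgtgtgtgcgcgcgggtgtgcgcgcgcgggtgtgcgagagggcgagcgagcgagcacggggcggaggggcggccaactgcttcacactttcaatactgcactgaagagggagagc
Cry1: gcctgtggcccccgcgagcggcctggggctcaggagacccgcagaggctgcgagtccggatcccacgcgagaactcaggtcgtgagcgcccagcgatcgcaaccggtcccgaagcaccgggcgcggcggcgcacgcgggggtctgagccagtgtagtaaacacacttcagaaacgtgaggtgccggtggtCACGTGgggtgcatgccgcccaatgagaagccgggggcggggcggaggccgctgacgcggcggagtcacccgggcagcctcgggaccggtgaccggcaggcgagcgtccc

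Per3, higher at ZT10, holds 2 D-boxes at -205 and -158 (minus strand, chr4:151044616-151044915). The ROR element lies at 30 of the second annotated start of Arntl (plus strand, chr7:113207261-113207560), at -12 in Nfil3 (minus strand, chr13:52980990-52981289) and at -88 in Dhrs9 (plus strand, chr2:69380212-69380511), and all 3 genes were higher at ZT22. The element stands in Nfil3 and Dhrs9 as its reverse complement.
Per3: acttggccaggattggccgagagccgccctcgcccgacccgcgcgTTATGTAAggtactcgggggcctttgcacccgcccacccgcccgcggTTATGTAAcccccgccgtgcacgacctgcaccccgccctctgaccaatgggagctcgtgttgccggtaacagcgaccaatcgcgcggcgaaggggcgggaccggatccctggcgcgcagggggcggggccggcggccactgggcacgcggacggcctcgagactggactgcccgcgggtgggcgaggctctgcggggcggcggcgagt
Arntl: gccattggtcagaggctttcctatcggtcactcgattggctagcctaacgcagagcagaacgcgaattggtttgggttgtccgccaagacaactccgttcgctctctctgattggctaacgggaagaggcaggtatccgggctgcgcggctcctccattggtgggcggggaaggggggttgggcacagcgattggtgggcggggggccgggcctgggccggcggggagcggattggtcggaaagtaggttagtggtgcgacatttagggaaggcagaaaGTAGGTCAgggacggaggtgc
Nfil3: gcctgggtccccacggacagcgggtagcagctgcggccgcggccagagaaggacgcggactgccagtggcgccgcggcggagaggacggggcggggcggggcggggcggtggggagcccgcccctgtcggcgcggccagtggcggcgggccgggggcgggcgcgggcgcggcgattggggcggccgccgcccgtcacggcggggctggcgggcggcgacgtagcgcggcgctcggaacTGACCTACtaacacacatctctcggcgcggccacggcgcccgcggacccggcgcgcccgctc
Dhrs9: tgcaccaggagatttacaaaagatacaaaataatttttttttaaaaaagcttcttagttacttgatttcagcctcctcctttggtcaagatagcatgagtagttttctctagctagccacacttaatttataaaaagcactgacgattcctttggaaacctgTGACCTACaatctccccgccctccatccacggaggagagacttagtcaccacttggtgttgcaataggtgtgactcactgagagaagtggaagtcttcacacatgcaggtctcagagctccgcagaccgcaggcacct

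Most activators of the clock were higher at ZT22. Of the 5 listed, 4 were called, all higher at ZT22, against 5.33% of all genes tested, and the list's median log2 fold change was -1.72 beside -0.01 for all genes. Arntl, on chromosome 7 from 113207465 to 113314126 of GRCm38, was at 0.537, 0.332 and 0.977 CPM at ZT10 and 41, 33.9 and 34.3 CPM at ZT22. No library of one time came near the other, and the level at ZT22 was 59.1-fold that at ZT10 (log2 -5.88 ± 0.26 SE, adjusted p = 1.1e-06). Npas2, which can take the place of CLOCK beside BMAL1, was at 0.107, 0.111 and 0.172 CPM at ZT10 and 13, 11.1 and 11.3 CPM at ZT22. The ZT22 libraries again lay far above the rest, with the lowest log2 fold change of all genes tested (-6.44 ± 0.27 SE, adjusted p = 1.03e-06). Clock itself was expressed at both times, with 33.9, 37.8 and 38.8 CPM at ZT10 and 126, 118 and 119 CPM at ZT22 (log2 -1.72 ± 0.10 SE, adjusted p = 9.92e-06). The groups did not overlap. Rora, which encodes a receptor that activates Arntl through the ROR element, was at 69.8, 91.7 and 102 CPM at ZT10 and 180.1, 95.5 and 123 CPM at ZT22, with overlapping groups (log2 -0.60 ± 0.22 SE, adjusted p = 0.122).

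**Figure D1:**
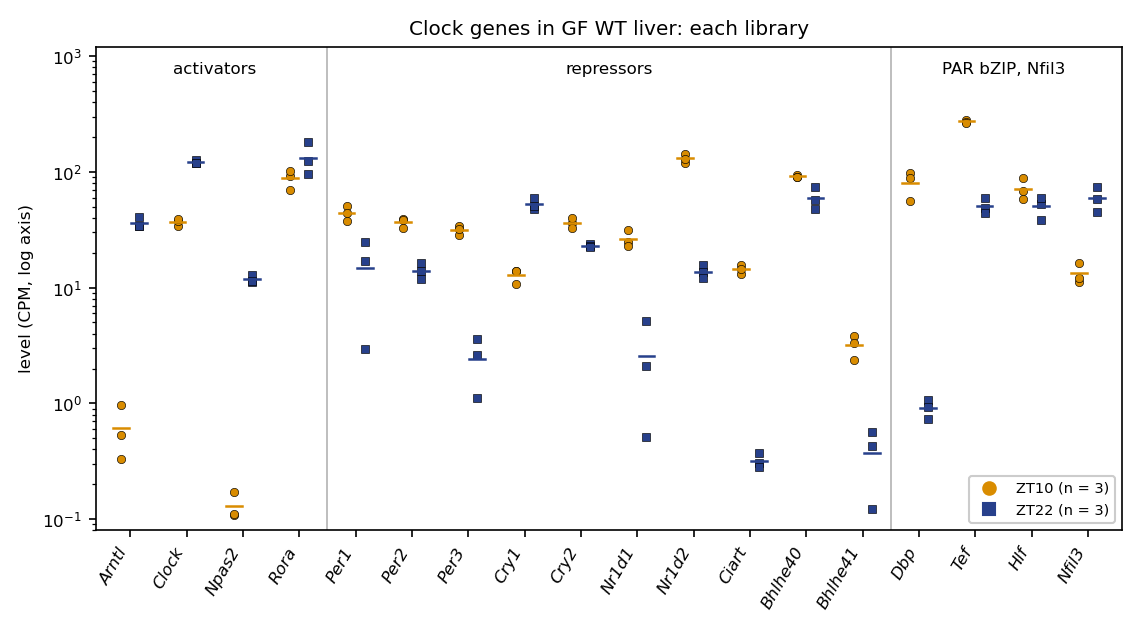
Level of the clock genes reported here in CPM (log axis) in the 3 GF WT libraries of ZT10 (orange circles) and the 3 of ZT22 (blue squares), with the mean of each time as a line, grouped as activators, repressors, and PAR bZIP factors with Nfil3. Arntl and Npas2 sit below 1 CPM in all ZT10 libraries, Dbp and Ciart sit near or below 1 CPM in all ZT22 libraries, and the groups overlap for Rora and Hlf.

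The repressors moved the other way, with Cry1 as the exception. Of the 10 repressors, 8 were higher at ZT10 and 1 was higher at ZT22, beside 5.01% and 5.33% of all genes tested. The repressors had a median log2 fold change of 2.30. The period genes, whose proteins block the activators, were all above their ZT22 levels at ZT10. Per3 was at 28.4, 34 and 32.1 CPM at ZT10 and 1.1, 2.61 and 3.57 CPM at ZT22 (log2 3.69 ± 0.29 SE, adjusted p = 6.95e-05). Per2 was at 39.1, 33 and 38.7 CPM at ZT10 and 11.8, 13.8 and 16.4 CPM at ZT22 (log2 1.39 ± 0.14 SE, adjusted p = 0.000361). For both genes every ZT10 library lay above every ZT22 library. Per1 was at 50.8, 37.5 and 44.6 CPM at ZT10 and 24.8, 16.9 and 2.95 CPM at ZT22 and its groups did not overlap either, but the ZT22 libraries were widely spread and it was not called (log2 1.57 ± 0.51 SE, adjusted p = 0.0849).

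The cryptochromes, partners of the PER proteins, went apart. Cry1 was at 14, 10.8 and 14 CPM at ZT10 and 59.3, 47.5 and 50.2 CPM at ZT22, higher at ZT22 in every library (log2 -2.03 ± 0.15 SE, adjusted p = 3.61e-05), whereas Cry2 was at 36.2, 32.5 and 39.8 CPM at ZT10 and 23.9, 22.9 and 22.5 CPM at ZT22, modestly higher at ZT10 (log2 0.64 ± 0.12 SE, adjusted p = 0.00709). The nuclear receptor genes that silence Arntl were both higher at ZT10. Nr1d1 was at 24.6, 23.1 and 31.5 CPM at ZT10 and 5.16, 0.51 and 2.09 CPM at ZT22, where the ZT22 values spanned a wide range below every ZT10 value (log2 3.35 ± 0.49 SE, adjusted p = 0.00249). Nr1d2, the more abundant transcript at both times in counts not corrected for length, was at 119, 144 and 129 CPM at ZT10 and 15.5, 13.6 and 12.1 CPM at ZT22 with a much tighter spread (log2 3.25 ± 0.14 SE, adjusted p = 1.03e-06).

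Ciart, which holds 3 E-boxes in the window shown above, was at 15.7, 13.1 and 14.4 CPM at ZT10 and 0.307, 0.284 and 0.369 CPM at ZT22. It was 44.1-fold higher at ZT10, with the groups far apart (log2 5.46 ± 0.23 SE, adjusted p = 1.03e-06). The E-box repressors Bhlhe41 and Bhlhe40 differed in size of change. Bhlhe41 was at 2.36, 3.81 and 3.33 CPM at ZT10 and 0.123, 0.567 and 0.431 CPM at ZT22 (log2 3.04 ± 0.41 SE, adjusted p = 0.00162). Bhlhe40 was at 93.9, 91.1 and 89.5 CPM at ZT10 and 73.5, 56.9 and 48.1 CPM at ZT22 (log2 0.62 ± 0.15 SE, adjusted p = 0.0288). The call of Bhlhe40, whose groups did not overlap, was lost in 8 of 14 alternative fits, among them those without any 1 replicate of ZT10 or without replicate 2 or 3 of ZT22. Of the 9 clock kinases and ubiquitin ligases, which set the life of the PER and CRY proteins, 0 were called. All genes tested had a share of 10.3%, from which 0 in so short a list cannot be set apart. The log2 fold changes of the 9 lay between -0.71 and 0.41 (median -0.07).

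The PAR bZIP factors carry the rhythm of the loop to liver metabolism through D-boxes, where NFIL3 opposes them. Dbp was at 55.5, 98.4 and 87.8 CPM at ZT10 and 0.737, 1.08 and 0.923 CPM at ZT22, an 87-fold difference and the highest log2 fold change of all genes tested (6.44 ± 0.28 SE, adjusted p = 1.03e-06). Tef, far more abundant at ZT22 than Dbp in counts, was at 282, 272 and 266 CPM at ZT10 and 48.5, 59.2 and 44.4 CPM at ZT22 (log2 2.43 ± 0.13 SE, adjusted p = 3.85e-06). Nfil3 showed the opposite order, with 16.4, 11.2 and 12.2 CPM at ZT10 and 73.7, 57.9 and 45.4 CPM at ZT22 (log2 -2.16 ± 0.20 SE, adjusted p = 0.000255). None of these 3 genes overlapped between the times. Hlf, the remaining member, was at 58.2, 67.8 and 89.3 CPM at ZT10 and 38.5, 52.9 and 59.9 CPM at ZT22, with overlap (log2 0.50 ± 0.19 SE, adjusted p = 0.124).

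Over all 6 times of GF WT liver, the 2 times compared were close to the turning points of many of the called genes but not of all. Of the 633 genes higher at ZT10, 494 (78%) had their highest of 6 mean levels at ZT10, whereas 288 (45.5%) had their lowest at ZT22, 171 at ZT2 and 150 at ZT18. Of the 673 genes higher at ZT22, 314 (46.7%) had their highest mean at ZT22, 200 at ZT18 and 142 at ZT2, and 528 (78.5%) had their lowest at ZT10. One library of another time, replicate 3 of GF WT at ZT6, stood apart from the other ZT6 libraries, and without it 451 and 469 genes had their highest or lowest mean at ZT10. The extremes at ZT10 and at ZT22 follow in part from how the genes were chosen, since a gene called higher at either time cannot have its lowest mean there. The same shares over all genes tested were not worked out.

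**Figure D2:**
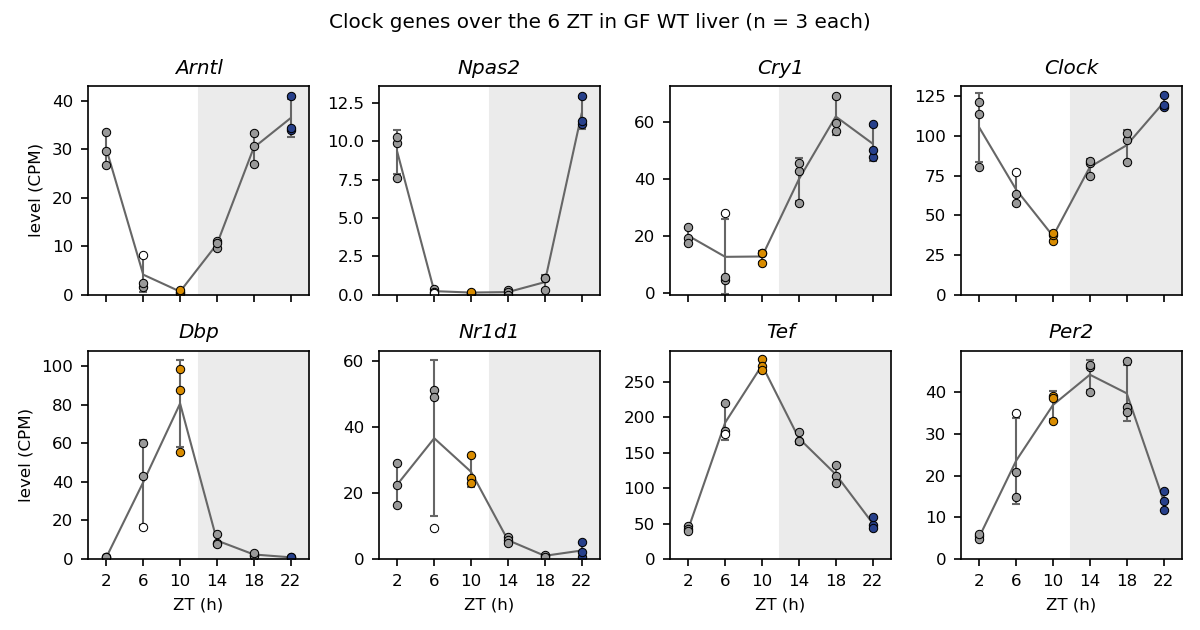
Levels in CPM of 8 clock genes at the 6 ZT in GF WT liver, with the mean and SD as a line and bars, each library as a point (orange at ZT10, blue at ZT22, grey at other times), the dark phase shaded, and replicate 3 of ZT6, which stood apart, as an open point. Arntl, Npas2 and Clock are near their lowest at ZT10 and highest at ZT22, Dbp and Tef are highest at ZT10, Nr1d1 has its highest mean at ZT6, Per2 at ZT14, and Cry1 at ZT18.

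Among clock genes the same times caught different phases. Mean Arntl was 36.4 CPM at ZT22, 29.9 at ZT2 and 30.3 at ZT18, and Npas2 reached 11.8 CPM at ZT22 and 9.28 at ZT2 after only 0.81 at ZT18. Nr1d1 had mean levels of 36.5 CPM at ZT6 and 26.4 at ZT10, and without replicate 3 its ZT6 mean was 50.1. Per2 was at 44.2 CPM at ZT14 and 36.9 at ZT10, and Cry1 was at 61.8 CPM at ZT18 and 52.4 at ZT22. For Nr1d1, Per2 and Cry1 the highest of the 6 means therefore lay outside the 2 times compared.

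Beyond the loop itself, most textbook clock outputs of liver differed. Of 14 outputs, 8 were higher at ZT10 and 3 higher at ZT22 (median log2 fold change 1.46), beside 5.01% and 5.33% of all genes tested. Usp2, a deubiquitinase under direct control of the clock, was at 59.7, 60.1 and 69.6 CPM at ZT10 and 6.39, 6.18 and 4.55 CPM at ZT22 (log2 3.46 ± 0.15 SE, adjusted p = 1.16e-06). Wee1, a kinase that holds cells before mitosis, was at 16.4, 20.7 and 22.7 CPM at ZT10 and 2.46, 3.4 and 5.91 CPM at ZT22 (log2 2.34 ± 0.27 SE, adjusted p = 0.000637). Por, the electron donor of the cytochrome P450 enzymes, was at 537, 478 and 688 CPM at ZT10 and 169, 181 and 108 CPM at ZT22 (log2 1.89 ± 0.20 SE, adjusted p = 0.000455). Each of these lay higher at ZT10 in every library. Alas1, the first enzyme of heme synthesis, was higher at ZT10 by 1.75 ± 0.19 SE (log2, adjusted p = 0.000517). Coq10b, a mitochondrial coenzyme Q protein, was higher by 2.37 ± 0.20 SE (adjusted p = 0.000102). Nampt, the rate-limiting enzyme of NAD salvage, was higher by 1.05 ± 0.12 SE (adjusted p = 0.000517), and its mean was 159 CPM at ZT10 beside 233 at ZT14. Elovl3, which elongates very long fatty acids, was at 108, 154 and 112 CPM at ZT10 and 1997, 1568 and 1397 CPM at ZT22, higher at ZT22 in every library (log2 -3.74 ± 0.20 SE, adjusted p = 3.85e-06). Tars, a threonyl-tRNA synthetase, was also higher at ZT22 (-1.64 ± 0.13 SE, adjusted p = 7.37e-05), as was Lonrf3, a RING finger protein (-1.92 ± 0.26 SE, adjusted p = 0.00151).

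**Figure D3:**
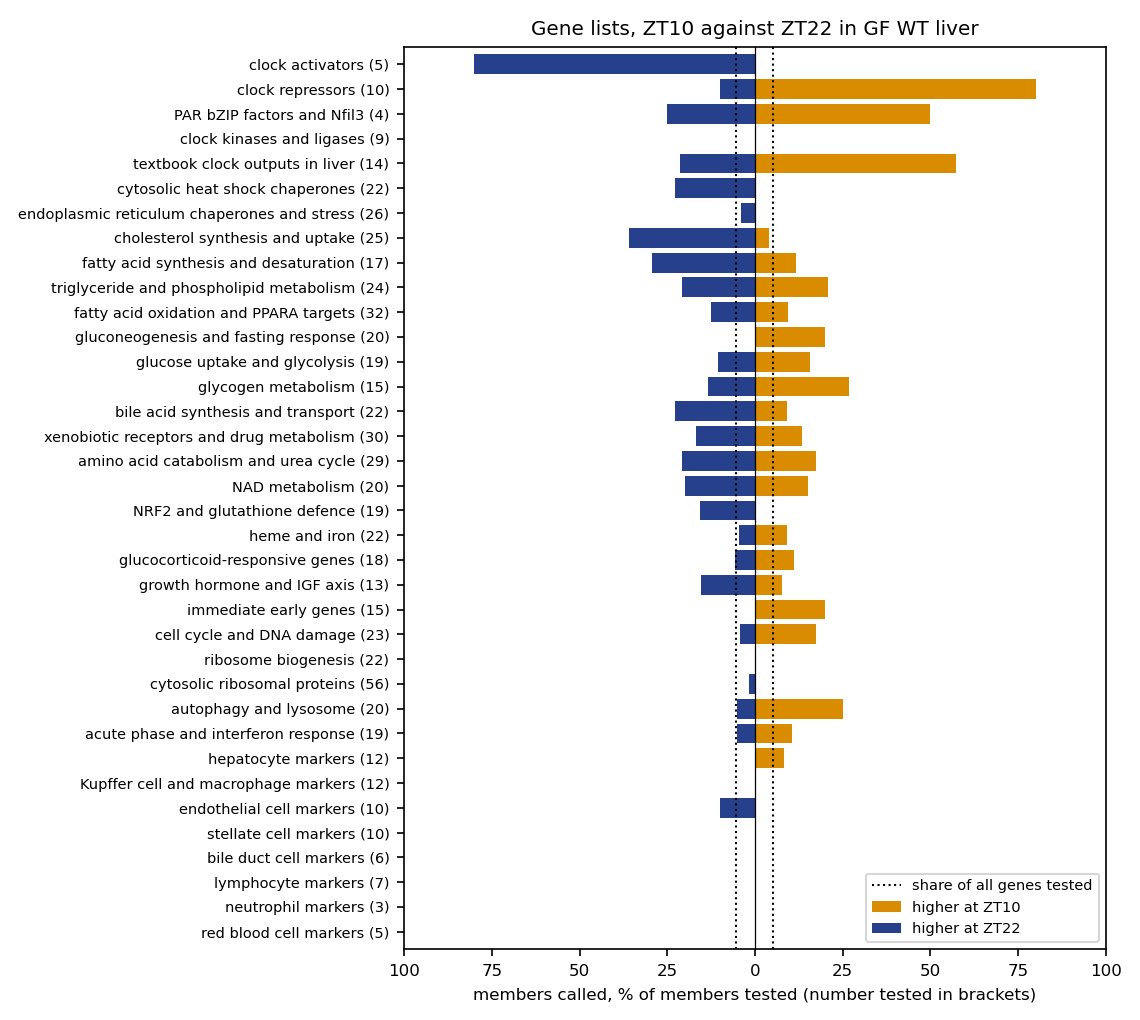
Share of the tested members of each gene list called higher at ZT10 (orange, to the right) or higher at ZT22 (blue, to the left) in GF WT liver, in percent, with the number of members tested in brackets and the share of all genes tested as dotted lines (5.01% and 5.33%). Lists with under 3 members tested are left out. Clock activators stand at 4 of 5 to the left and clock repressors at 8 of 10 to the right, and the cholesterol list reaches 9 of 25 to the left.

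Glycogen genes went both ways. Of 15 tested, 4 were higher at ZT10 and 2 at ZT22, with 9 not called (median log2 fold change 0.33), beside 5.01% and 5.33% of all genes tested. Gys2, the glycogen synthase of liver, was at 668, 592 and 622 CPM at ZT10 and 148, 136 and 143 CPM at ZT22 (log2 2.14 ± 0.10 SE, adjusted p = 2.21e-06), 4.4-fold higher at ZT10 with tight groups. Ugp2, which makes UDP-glucose for it, was at 921, 888 and 855 CPM at ZT10 and 561, 445 and 417 CPM at ZT22 (log2 0.90 ± 0.13 SE, adjusted p = 0.00228). The targeting subunits that bring protein phosphatase 1 to glycogen went in opposite directions. Ppp1r3g was at 37, 38.2 and 50.4 CPM at ZT10 and 5.65, 4.59 and 0.123 CPM at ZT22 (log2 3.58 ± 0.59 SE, adjusted p = 0.0044). Ppp1r3c was at 32.9, 31.7 and 38.7 CPM at ZT10 and 328, 247 and 387 CPM at ZT22 (log2 -3.22 ± 0.17 SE, adjusted p = 4.88e-06). Ppp1r3b, the most abundant of the 3 in counts at either time, was at 248, 192 and 268 CPM at ZT10 and 585, 561 and 540.4 CPM at ZT22 (log2 -1.25 ± 0.13 SE, adjusted p = 0.000387). Ppp1r3g was thus high late in the day and the other two late in the night, with no overlap for any of them. Phka2, a subunit of phosphorylase kinase, was higher at ZT10 by less (0.45 ± 0.11 SE, adjusted p = 0.0299), and its call was lost in 8 of 14 alternatives. Replicate 3 of ZT22 was far below the other two for Ppp1r3g, and the call of Ppp1r3g was lost in the fit of 18 libraries and with robust empirical Bayes.

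Of 20 gluconeogenesis and fasting genes, 4 were higher at ZT10 and 0 higher at ZT22 (median log2 fold change 0.25), against 5.01% and 5.33% of all genes tested. They were Slc37a4, the glucose 6-phosphate transporter of the endoplasmic reticulum (0.76 ± 0.15 SE, adjusted p = 0.0101), Gpt2, an alanine aminotransferase (0.50 ± 0.11 SE, adjusted p = 0.019), Foxo3, a transcription factor restrained by insulin (0.98 ± 0.21 SE, adjusted p = 0.0182), and Sds, serine dehydratase (1.04 ± 0.27 SE, adjusted p = 0.0393). Without replicate 2 at ZT10 only 1 of the list was called, without replicate 3 at ZT10 or replicate 2 at ZT22 2 were, and without replicate 1 at ZT22 9 were. Of 19 glucose uptake and glycolysis genes, 3 were higher at ZT10 and 2 at ZT22 (median -0.12). Slc2a2, the glucose transporter GLUT2, was higher at ZT10 (0.83 ± 0.12 SE, adjusted p = 0.00263). Pfkfb3, which makes the activator of phosphofructokinase, was at 101, 74.6 and 68.2 CPM at ZT10 and 27.4, 16.8 and 6.15 CPM at ZT22 (log2 2.27 ± 0.41 SE, adjusted p = 0.00715), without overlap. Pdk2, a kinase that inhibits pyruvate dehydrogenase, was higher at ZT10 (0.59 ± 0.16 SE, adjusted p = 0.0462) and Pgk1, phosphoglycerate kinase, at ZT22 (-0.45 ± 0.12 SE, adjusted p = 0.0463), and both calls were lost in at least 7 of 14 alternatives. Pfkfb3 and, in the next lists, Thrsp were not called with robust empirical Bayes (adjusted p = 0.0802 and 0.0569).

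Lipid genes went both ways too. Of 24 triglyceride and phospholipid genes tested, 5 were higher at ZT10 and 5 at ZT22 (median log2 fold change -0.11), beside 5.01% and 5.33% of all genes tested. Chka, choline kinase alpha, was at 8.97, 10.6 and 7.7 CPM at ZT10 and 100, 99.9 and 91.8 CPM at ZT22, 10.7-fold higher at ZT22 (log2 -3.42 ± 0.14 SE, adjusted p = 1.03e-06). Etnk2, an ethanolamine kinase, was at 587, 588 and 503 CPM at ZT10 and 235, 265 and 268 CPM at ZT22, higher at ZT10 (log2 1.12 ± 0.11 SE, adjusted p = 0.000317). Gpcpd1, which releases choline from glycerophosphocholine and is no member of the list, was at 655, 809.8 and 912 CPM at ZT10 and 64.2, 70.9 and 56 CPM at ZT22, 12.4-fold higher at ZT10 (log2 3.63 ± 0.15 SE, adjusted p = 1.03e-06). None of these 3 overlapped. Dgat2, which closes triglyceride synthesis (0.70 ± 0.10 SE, adjusted p = 0.00163), and Pnpla2, the lipase that opens its breakdown (1.28 ± 0.22 SE, adjusted p = 0.00589), were both higher at ZT10. Cidec, a lipid droplet protein, was at 4.03, 3.48 and 4.71 CPM at ZT10 and 0.921, 1.65 and 1.11 CPM at ZT22 (log2 1.72 ± 0.27 SE, adjusted p = 0.00363), and Gpat4, a glycerol phosphate acyltransferase, was also higher at ZT10 (0.59 ± 0.13 SE, adjusted p = 0.022). The acyltransferase gene Agpat2 was higher at ZT22 (-1.22 ± 0.15 SE, adjusted p = 0.00109), as were Pemt, which methylates phosphatidylethanolamine (-0.36 ± 0.10 SE, adjusted p = 0.0494), and the lipid droplet coat genes Plin2 (-0.68 ± 0.18 SE, adjusted p = 0.0439) and Plin5 (-0.85 ± 0.24 SE, adjusted p = 0.0488). The 5 calls at ZT22 fell to 2 without replicate 1 or 2 at ZT10 or replicate 2 or 3 at ZT22.

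**Figure D4:**
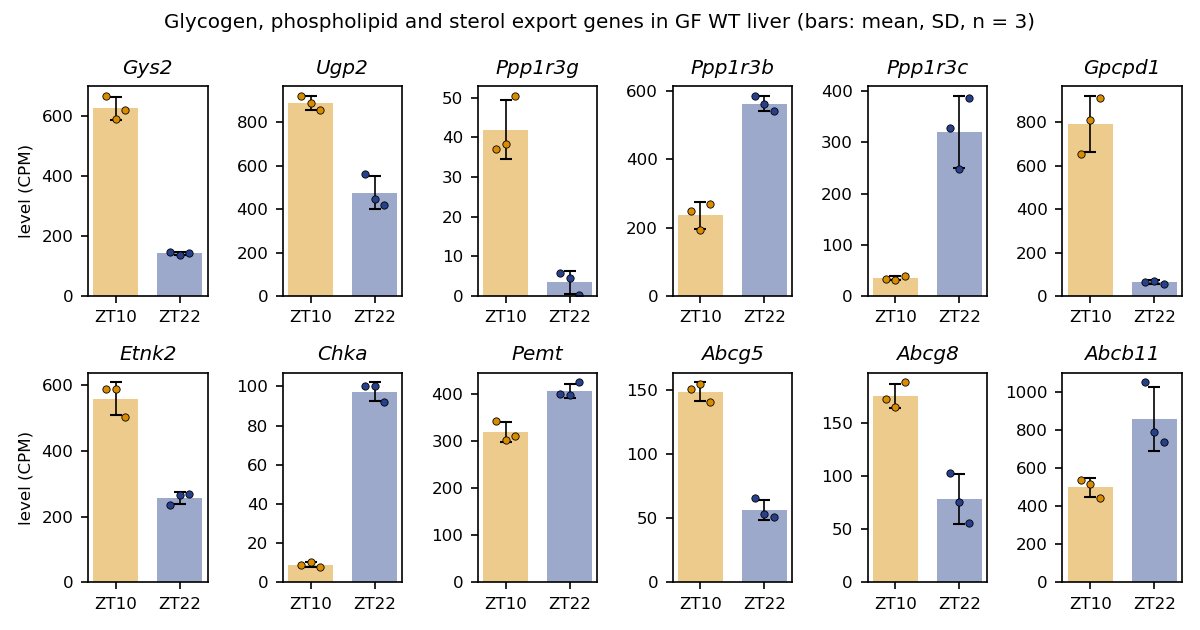
Levels in CPM of 12 genes of glycogen, phospholipid and sterol handling in GF WT liver at ZT10 (orange) and ZT22 (blue), with bars for the mean, error bars for the SD (n = 3) and points for the libraries, each panel on its own axis from 0. Gys2, Ugp2, Ppp1r3g, Gpcpd1, Etnk2, Abcg5 and Abcg8 are higher at ZT10, and Ppp1r3b, Ppp1r3c, Chka, Pemt and Abcb11 are higher at ZT22.

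Of 17 fatty acid synthesis and desaturation genes tested, 2 were higher at ZT10 and 5 at ZT22 (median log2 fold change -0.20), beside 5.01% and 5.33% of all genes tested. Thrsp, a lipogenic factor, was at 1813, 940.5 and 1291 CPM at ZT10 and 294, 374 and 642 CPM at ZT22, higher at ZT10 (log2 1.62 ± 0.30 SE, adjusted p = 0.00807), and Fads2, the delta-6 desaturase, was also higher at ZT10 (0.84 ± 0.17 SE, adjusted p = 0.0117). Insig2, which holds the sterol sensor of SREBP in the endoplasmic reticulum, was at 69.5, 86.7 and 105 CPM at ZT10 and 614, 498 and 552 CPM at ZT22, higher at ZT22 in every library (log2 -2.68 ± 0.16 SE, adjusted p = 9.92e-06). Mlxipl, which encodes the sugar-sensing factor ChREBP (-0.75 ± 0.13 SE, adjusted p = 0.00538), and Acss2, an acetyl-CoA synthetase (-0.96 ± 0.15 SE, adjusted p = 0.0033), were higher at ZT22, as were Elovl3, given above, and Me1, the malic enzyme that yields NADPH (-0.79 ± 0.18 SE, adjusted p = 0.0256). Of 32 fatty acid oxidation and PPARA target genes, 3 were higher at ZT10 and 4 at ZT22 (median -0.10), and 25 were not called. The shares of all genes tested were again 5.01% and 5.33%. Cpt1a, the gate of mitochondrial oxidation, was at 613, 716 and 882 CPM at ZT10 and 382, 358 and 249 CPM at ZT22 (log2 1.16 ± 0.18 SE, adjusted p = 0.00357), higher at ZT10 without overlap. Pdk4, the kinase that shuts pyruvate dehydrogenase, was at 3.65, 4.31 and 5.34 CPM at ZT10 and 23.1, 17 and 42.2 CPM at ZT22 (log2 -2.63 ± 0.32 SE, adjusted p = 0.000837), and Crat, carnitine acetyltransferase, was higher at ZT22 as well (-1.69 ± 0.24 SE, adjusted p = 0.0019). Cyp4a10, a fatty acid hydroxylase (-1.09 ± 0.26 SE, adjusted p = 0.0259), and Ehhadh, of peroxisomal oxidation (-0.66 ± 0.15 SE, adjusted p = 0.0252), were the other two. Ppara, the receptor that drives this pathway (0.95 ± 0.24 SE, adjusted p = 0.0312), and Bdh1, which makes the ketone body hydroxybutyrate (0.59 ± 0.10 SE, adjusted p = 0.00442), were higher at ZT10. The 4 calls at ZT22 became 2 without replicate 1 at ZT10 or replicate 2 at ZT22, and 7 without replicate 3 at ZT10.

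More genes of sterol synthesis were called higher at ZT22 than at ZT10. Of 25 genes of cholesterol synthesis and uptake, 9 were higher at ZT22 and 1 was higher at ZT10, beside 5.33% and 5.01% of all genes tested. Of the 25, 20 had a negative log2 fold change, and the median was -0.36. Pmvk, phosphomevalonate kinase, was at 61.7, 58.5 and 74.3 CPM at ZT10 and 135, 156 and 154 CPM at ZT22 (log2 -1.19 ± 0.12 SE, adjusted p = 0.000298). Hmgcs1, HMG-CoA synthase of the mevalonate path, was at 246, 380.3 and 465 CPM at ZT10 and 526, 814 and 982 CPM at ZT22 (log2 -1.09 ± 0.25 SE, adjusted p = 0.0242). Neither overlapped between the times. Mvd (-0.99 ± 0.18 SE, adjusted p = 0.00811), Acat2 (-0.64 ± 0.11 SE, adjusted p = 0.00555), Lss (-0.81 ± 0.17 SE, adjusted p = 0.0172) and Dhcr7 (-0.61 ± 0.13 SE, adjusted p = 0.015), enzymes of the same path, were higher at ZT22. Stard4, a sterol carrier, was the single member higher at ZT10 (0.59 ± 0.09 SE, adjusted p = 0.00357). The 9 calls fell to 3 without replicate 1 or 2 at ZT10, to 5 without replicate 2 or 3 at ZT22, and to 4 in the fit with SPF WT libraries. They rose to at most 11 with 1 library left out and to at most 13 in the other fits.

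Bile acid and sterol export went in both directions. Of 22 bile acid synthesis and transport genes tested, 5 were higher at ZT22 and 2 at ZT10 (median log2 fold change -0.12), beside 5.33% and 5.01% of all genes tested. The 2 were the half-transporters that together send sterols into bile. Abcg5 was at 151, 154 and 141 CPM at ZT10 and 65.4, 53.2 and 50.7 CPM at ZT22 (log2 1.39 ± 0.12 SE, adjusted p = 0.000158). Abcg8 was at 173, 166 and 188 CPM at ZT10 and 104, 76.1 and 56.3 CPM at ZT22 (log2 1.15 ± 0.19 SE, adjusted p = 0.00468). Both were higher at ZT10 in every library. Abcb11, the bile salt export pump, was at 537, 517 and 443 CPM at ZT10 and 1048, 788 and 734 CPM at ZT22, higher at ZT22 (log2 -0.79 ± 0.15 SE, adjusted p = 0.0104). Baat, which joins bile acids to amino acids (-0.65 ± 0.11 SE, adjusted p = 0.00446), Acox2, which shortens the bile acid side chain (-0.92 ± 0.12 SE, adjusted p = 0.00104), and Akr1d1, a steroid reductase (-0.63 ± 0.14 SE, adjusted p = 0.0219), were higher at ZT22 too, as was Fgfr4, the receptor through which gut FGF15 restrains bile acid synthesis (-0.50 ± 0.12 SE, adjusted p = 0.0263). Without replicate 1 at ZT10 or replicate 2 at ZT22, 3 members were called higher at ZT22.

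Among 30 genes of drug metabolism, 4 were higher at ZT10 and 5 at ZT22 (median log2 fold change -0.04), beside 5.01% and 5.33% of all genes tested. Cyp2a5 was at 742, 728 and 574 CPM at ZT10 and 155, 252 and 301 CPM at ZT22 (log2 1.53 ± 0.22 SE, adjusted p = 0.00212), and stood with Por, Cyp2e1 (0.56 ± 0.13 SE, adjusted p = 0.0212) and the transporter gene Abcc2 (0.43 ± 0.12 SE, adjusted p = 0.0488) among the members higher at ZT10. Ces1d, a carboxylesterase, was at 669.5, 741 and 873 CPM at ZT10 and 1624, 1704 and 1736 CPM at ZT22 (log2 -1.15 ± 0.12 SE, adjusted p = 0.000361), higher at ZT22, together with Cyp2b10 (-1.58 ± 0.29 SE, adjusted p = 0.00769), Cyp2c29 (-0.61 ± 0.12 SE, adjusted p = 0.0142), Cyp3a11 (-0.67 ± 0.17 SE, adjusted p = 0.0361) and Cyp3a13 (-0.46 ± 0.12 SE, adjusted p = 0.0373). These families hold near-identical copies, and reads that fitted several places were left out, so their values are uncertain. Without replicate 1 at ZT10 2 members were called higher at ZT22, without replicate 2 or 3 at ZT10 3 were, and without replicate 2 or 3 at ZT10 2 members were called higher at ZT10.

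Among 29 genes of amino acid catabolism and the urea cycle, 5 were higher at ZT10 and 6 at ZT22 (median log2 fold change -0.14). Of all genes tested, 5.01% and 5.33% were. Gldc, of the glycine cleavage system, was at 79, 62 and 68.4 CPM at ZT10 and 291, 236 and 235 CPM at ZT22 (log2 -1.87 ± 0.14 SE, adjusted p = 3.61e-05). Its groups did not overlap, and Bhmt, betaine-homocysteine methyltransferase (-1.15 ± 0.17 SE, adjusted p = 0.00239), and Cbs, which condenses homocysteine with serine (-0.62 ± 0.13 SE, adjusted p = 0.015), were higher at ZT22 as well, as was Nags, which makes the activator of the urea cycle (-0.62 ± 0.10 SE, adjusted p = 0.00469). With Sds, given above, Slc7a2, a carrier of cationic amino acids (1.31 ± 0.28 SE, adjusted p = 0.0157), Slc38a4, another amino acid carrier (0.58 ± 0.14 SE, adjusted p = 0.0292), and Glul, glutamine synthetase (0.48 ± 0.12 SE, adjusted p = 0.0318), were higher at ZT10. The 5 calls at ZT10 fell to 1 without replicate 2 at ZT10, to 2 without replicate 2 at ZT22 and to 3 without replicate 3 of either time.

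NAD genes went both ways. Of 20 tested, 3 were higher at ZT10 and 4 at ZT22 (median log2 fold change -0.03), beside 5.01% and 5.33% of all genes tested. The 3 were Nampt, given above, Nmrk1, a nicotinamide riboside kinase, at 51.5, 48.4 and 54.9 CPM at ZT10 and 13.6, 17.9 and 21.9 CPM at ZT22 (log2 1.53 ± 0.16 SE, adjusted p = 0.000417), and Nadsyn1, NAD synthetase (0.64 ± 0.13 SE, adjusted p = 0.0116). The 4, which act in the breakdown of tryptophan through kynurenine, were Kynu (-0.70 ± 0.13 SE, adjusted p = 0.00918), Afmid (-0.51 ± 0.12 SE, adjusted p = 0.0235), Ido2 (-0.46 ± 0.10 SE, adjusted p = 0.0174) and Acmsd (-0.96 ± 0.21 SE, adjusted p = 0.0192). Of these 4, 2 were called without replicate 1 at ZT10 and 1 without replicate 2 of either time. Of 19 NRF2 and glutathione genes tested, 3 were higher at ZT22 and 0 at ZT10 (median -0.21), with Gclc, the rate-limiting subunit of glutathione synthesis, at 104, 141 and 131 CPM at ZT10 and 381, 308 and 328 CPM at ZT22 (log2 -1.44 ± 0.14 SE, adjusted p = 0.000281). Gsta3, a glutathione transferase (-0.78 ± 0.12 SE, adjusted p = 0.0031), and Gsr, glutathione reductase (-0.35 ± 0.10 SE, adjusted p = 0.0467, lost in 10 of 14 alternatives), were the other two. Of 22 heme and iron genes, 2 were higher at ZT10 and 1 at ZT22 (median -0.04), shares near the 5.01% and 5.33% of all genes tested, namely Alas1, Fech, which closes heme synthesis (0.38 ± 0.10 SE, adjusted p = 0.0339), and the iron transporter gene Slc11a2 (-0.70 ± 0.15 SE, adjusted p = 0.0153).

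Of 22 cytosolic heat shock chaperones and co-chaperones, 5 were higher at ZT22 and 0 at ZT10 (median log2 fold change -0.12), beside 5.33% and 5.01% of all genes tested. Fkbp4, a co-chaperone of steroid receptors, was at 174, 156 and 179.7 CPM at ZT10 and 292, 274 and 331 CPM at ZT22 (log2 -0.82 ± 0.11 SE, adjusted p = 0.00151), and Hsp90aa1, an inducible HSP90, was at 41.5, 35.5 and 30.6 CPM at ZT10 and 74.9, 49.3 and 70.9 CPM at ZT22 (log2 -0.86 ± 0.18 SE, adjusted p = 0.0136). Hspa4l (-0.72 ± 0.16 SE, adjusted p = 0.0215), Stip1 (-0.48 ± 0.13 SE, adjusted p = 0.0413) and Cacybp (-0.42 ± 0.11 SE, adjusted p = 0.0347) made up the 5. With 1 library left out, 1 to 5 of the list were called, with 1 without replicate 2 at ZT10, 2 without replicate 3 at ZT10 and 3 without replicate 1 of either time, and 1 was in the fit with SPF WT libraries. Of 26 endoplasmic reticulum chaperones and stress genes 1 was called, Calr, higher at ZT22 (-0.62 ± 0.17 SE, adjusted p = 0.0424). Of the 26, 20 had a negative log2 fold change (median -0.27). With 1 library left out, 0 to 5 were called higher at ZT22 and 0 to 2 at ZT10, and in the other fits 0 to 8 and 0 to 3. Of the 2 cold-inducible RNA-binding proteins 0 were called.

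Of 18 glucocorticoid-responsive genes, 2 were higher at ZT10 and 1 at ZT22 (median log2 fold change 0.16), near the 5.01% and 5.33% of all genes tested. Mt1, a metallothionein, was at 117, 134 and 157 CPM at ZT10 and 38.7, 41.8 and 19.6 CPM at ZT22 (log2 2.02 ± 0.25 SE, adjusted p = 0.000872), and its neighbour Mt2 was higher at ZT10 too (1.84 ± 0.40 SE, adjusted p = 0.0177). Cdkn1a, which encodes the cell cycle inhibitor p21, was at 1.4, 1.6 and 1.72 CPM at ZT10 and 63.1, 29.9 and 8.49 CPM at ZT22 (log2 -4.43 ± 0.65 SE, adjusted p = 0.00252). All ZT22 libraries of Cdkn1a lay above those of ZT10, over a several-fold range among themselves, and with robust empirical Bayes it was not called (adjusted p = 0.0561). In the 23 tested genes of cell cycle and DNA damage, 4 were higher at ZT10 and 1, Cdkn1a, at ZT22 (median 0.32). Beside Wee1 these were the cyclin genes Ccnd1 at 22.7, 22.2 and 17.2 CPM at ZT10 and 6.2, 7.2 and 7.5 CPM at ZT22 (log2 1.56 ± 0.16 SE, adjusted p = 0.000336), Ccne1 (2.39 ± 0.38 SE, adjusted p = 0.00373) and Ccne2 (1.08 ± 0.23 SE, adjusted p = 0.0172). Of 13 growth hormone and IGF genes, 1 was higher at ZT10 and 2 at ZT22, beside 5.01% and 5.33% of all genes tested. The 1 was the cytokine signal inhibitor Socs3 (1.14 ± 0.23 SE, adjusted p = 0.0115). The 2 were the signal transducers Stat5a (-1.24 ± 0.19 SE, adjusted p = 0.00321) and Stat5b (-0.69 ± 0.15 SE, adjusted p = 0.0195).

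Of 15 immediate early genes tested, 3 were higher at ZT10 and 0 at ZT22 (median log2 fold change 0.32), of 20 autophagy and lysosome genes 5 and 1 (median 0.04), and of 19 acute phase and interferon genes 2 and 1 (median -0.10). The shares of the last list lay near the 5.01% and 5.33% of all genes tested. The 3 immediate early genes, all transcription regulators, were Klf4 (1.60 ± 0.33 SE, adjusted p = 0.0136), Klf2 (1.35 ± 0.25 SE, adjusted p = 0.0078) and Btg2 (0.90 ± 0.24 SE, adjusted p = 0.044). Their calls fell to 1 without replicate 2 of either time and were 2 without replicate 3 of either time, and 0 of them were called in the fit of 18 libraries. The autophagy calls at ZT10 fell to 2 without any 1 replicate of ZT10 and to 3 without replicate 2 at ZT22. Wipi1, an early factor of autophagosome formation, was at 17, 18.3 and 21.3 CPM at ZT10 and 10.2, 10.6 and 6.21 CPM at ZT22 (log2 1.06 ± 0.20 SE, adjusted p = 0.00882). Bnip3 (0.79 ± 0.14 SE, adjusted p = 0.00543), Atg14 (0.72 ± 0.17 SE, adjusted p = 0.027), Map1lc3b (0.56 ± 0.14 SE, adjusted p = 0.0378) and Bnip3l (0.37 ± 0.10 SE, adjusted p = 0.0407) were the remaining ones, and the receptor gene Sqstm1 was higher at ZT22 (-0.42 ± 0.11 SE, adjusted p = 0.0373). Il1rn, the natural blocker of interleukin 1 (1.25 ± 0.31 SE, adjusted p = 0.0341), and Usp18, an interferon-induced protease (0.93 ± 0.19 SE, adjusted p = 0.014), were higher at ZT10. Crp, C-reactive protein, was at 524, 566 and 484 CPM at ZT10 and 1127, 861 and 1001 CPM at ZT22 (log2 -0.93 ± 0.13 SE, adjusted p = 0.00177). Translation genes were almost without calls. Of 22 ribosome biogenesis genes, 0 were called and 18 had a positive log2 fold change (median 0.21), and of 56 cytosolic ribosomal protein genes 1 was called, Rpl32 (-0.38 ± 0.11 SE, adjusted p = 0.0485), and 45 had a negative one (median -0.22). Of the marker genes tested for 9 cell types or tissues, 1 hepatocyte marker, Cyp2e1, was higher at ZT10, and 1 of 10 endothelial markers, Tek, was higher at ZT22 (-0.52 ± 0.13 SE, adjusted p = 0.036). The median log2 fold change of the endothelial list was -0.15, with all 10 negative.

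The largest changes included members of the lists and other genes. At ZT10, Rgs16, a regulator of G protein signalling on the clock output list, was at 104, 71.1 and 142 CPM at ZT10 and 16.6, 3.63 and 1.91 CPM at ZT22 (log2 3.83 ± 0.62 SE, adjusted p = 0.00399), with the ZT22 libraries spread over a wide range below, and it was not called with robust empirical Bayes (adjusted p = 0.0732). Pcsk4, a proprotein convertase, was at 26.3, 31.2 and 32.1 CPM at ZT10 and 2.76, 2.95 and 2.95 CPM at ZT22 (log2 3.36 ± 0.14 SE, adjusted p = 1.03e-06), with both groups tight. The RNA Gm14097, annotated as antisense and lying within the 4092 bases it shares with Shld1 on the other strand, was higher by 3.55 ± 0.38 SE (adjusted p = 0.000419), and Gm45819, which shares 1751 bases with the antisense gene 1600010M07Rik, by 3.10 ± 0.35 SE (adjusted p = 0.000593). Dbp, Ciart, Rgs16, Per3, Ppp1r3g, Usp2, Nr1d1, Arntl, Npas2, Tef, Chka, Cdkn1a, Slc30a10 and Clpx also overlap another annotated gene. The counting did not use the strand, and reads that fitted several genes were left out. These overlaps are of whole gene spans, introns included, and how far they touch the counts was not tested.

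At ZT22, Tubb2a, a beta-tubulin, was at 5.54, 5.69 and 5.69 CPM at ZT10 and 102, 95 and 112 CPM at ZT22, and had the smallest adjusted p of all genes tested (log2 -4.19 ± 0.12 SE, adjusted p = 2.18e-07). Dhrs9, a retinol and steroid dehydrogenase whose window holds a ROR element, was at 0.215, 0.111 and 0.23 CPM at ZT10 and 7.98, 6.75 and 4.49 CPM at ZT22 (log2 -5.07 ± 0.38 SE, adjusted p = 4.58e-05). Loxl4, a lysyl oxidase of the matrix, was at 0.699, 0.774 and 0.632 CPM at ZT10 and 7.86, 8.68 and 20.9 CPM at ZT22 (log2 -4.14 ± 0.43 SE, adjusted p = 0.000408). In all 3 genes the libraries of ZT22 lay well above those of ZT10. Slc30a10, a manganese exporter, was higher by 9.16-fold at ZT22 (log2 -3.20 ± 0.21 SE, adjusted p = 1.83e-05). Cldn1, a tight junction claudin, was higher by 9.02-fold (log2 -3.17 ± 0.19 SE, adjusted p = 9.92e-06). Pitx3 was at 0.107, 0.276 and 0.689 CPM at ZT10 and 19.1, 12.2 and 6.33 CPM at ZT22 (log2 -5.13 ± 0.55 SE, adjusted p = 0.00046). It lies on chromosome 19 (46135685 to 46148326, minus strand) with its end against that of Elovl3 (46131897 to 46135694, plus strand), shares 10 bases with it, and had far fewer counts than Elovl3 at either time. Reads that run past the annotated end of Elovl3 cannot be told apart from those of Pitx3.

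Arntl, Npas2, Dbp and Tef changed less between ZT10 and ZT22 in GF mice that lacked hepatocyte Bmal1. The difference of the ZT10 to ZT22 change between GF WT and GF LKO was called for 270 of 13218 genes (2.04%), with 87 more positive in GF WT (0.658%) and 183 more negative (1.38%), and it was 1 log2 unit or more for 176 (1.33%). With 1 of the 12 libraries left out, 179 to 302 genes were called, the fewest without replicate 2 of GF LKO at ZT22. In GF LKO alone, 567 of 12809 genes were called (4.43%), 282 higher at ZT10 (2.2%) and 285 higher at ZT22 (2.22%), and 247 of them were among the 1306 of GF WT (43.6% of the former and 18.9% of the latter), 243 in the same direction. Counts per gene do not separate the deleted part of Arntl from the rest, so its level does not check the genotype, and GF LKO means of Arntl were 8.56 CPM at ZT10 and 11.3 CPM at ZT22. The log2 change of Arntl was -0.41 ± 0.16 SE in GF LKO, and its difference between the genotypes was -5.47 ± 0.32 SE (adjusted p = 7.08e-07).

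The difference was called for 4 of the 5 activators, 4 of the 10 repressors and 3 of the 4 PAR bZIP genes, beside 2.04% of all genes. In GF LKO alone, 0 of these activators, 3 of the repressors and 1 of the PAR bZIP genes were called. The repressors Ciart and Bhlhe41 were not tested there. Npas2 went from -6.44 ± 0.27 in GF WT to -0.74 ± 0.18 in GF LKO (difference -5.70 ± 0.39, adjusted p = 3.88e-06), where it stood at 20.3 and 33.7 CPM. Tef went from 2.43 ± 0.13 to 0.23 ± 0.10 (difference 2.19 ± 0.16, adjusted p = 7.28e-06), and Dbp from 6.44 ± 0.28 to 1.18 ± 0.27 (difference 5.26 ± 0.41, adjusted p = 1.03e-05). Per3 went from 3.69 ± 0.29 to -0.16 ± 0.22, which was not called (difference 3.85 ± 0.39, adjusted p = 7.1e-05), and Nr1d2 from 3.25 ± 0.14 to 1.24 ± 0.13 (difference 2.01 ± 0.18, adjusted p = 2.6e-05). Nr1d1 changed by 2.65 ± 0.27 in GF LKO at lower levels of 4.65 and 0.738 CPM, and the difference was not called (0.70 ± 0.74, adjusted p = 0.792).

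Of the outputs and metabolic genes, the difference was called for 8 of 14 clock outputs, 4 of 17 fatty acid synthesis genes, 4 of 22 bile acid genes and 3 of 15 glycogen genes, beside 2.04% of all genes. The genes with the smallest p for the difference included Clpx, Tubb2a, Arntl, Npas2 and Tef. Clpx, a chaperone of the mitochondrial matrix protease and an activator of heme synthesis, was at 78, 88.7 and 83.5 CPM at ZT10 and 594, 600.0 and 523 CPM at ZT22 in GF WT (log2 -2.78 ± 0.11 SE, adjusted p = 1.03e-06). In GF LKO its means were 766 and 621 CPM, the change was 0.30 ± 0.10, and the difference was -3.08 ± 0.14 (adjusted p = 5.4e-08). Tubb2a differed by -2.88 ± 0.17 (adjusted p = 7.08e-07). Ppp1r3c had a change of 0.00 ± 0.18 in GF LKO with means of 212 and 211 CPM (difference -3.22 ± 0.27, adjusted p = 1.44e-05), Gys2 of 0.35 ± 0.11 (1.79 ± 0.14, adjusted p = 1.13e-05) and Elovl3 of -0.33 ± 0.17 (-3.40 ± 0.28, adjusted p = 1.26e-05). Thrsp was higher at ZT22 in GF LKO, with -1.75 ± 0.22, and Cdkn1a had a value of 1.28 ± 0.33 that was not called there (adjusted p = 0.0631), with differences of 3.39 ± 0.43 (adjusted p = 0.000596) and -5.71 ± 0.83 (adjusted p = 0.00209). Of the 25 cholesterol genes the difference was called for 1, of the 22 heat shock genes for 0 and of the 20 gluconeogenesis genes for 0, and their median changes in GF LKO alone were -0.37, -0.25 and 0.46.

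**Figure D5:**
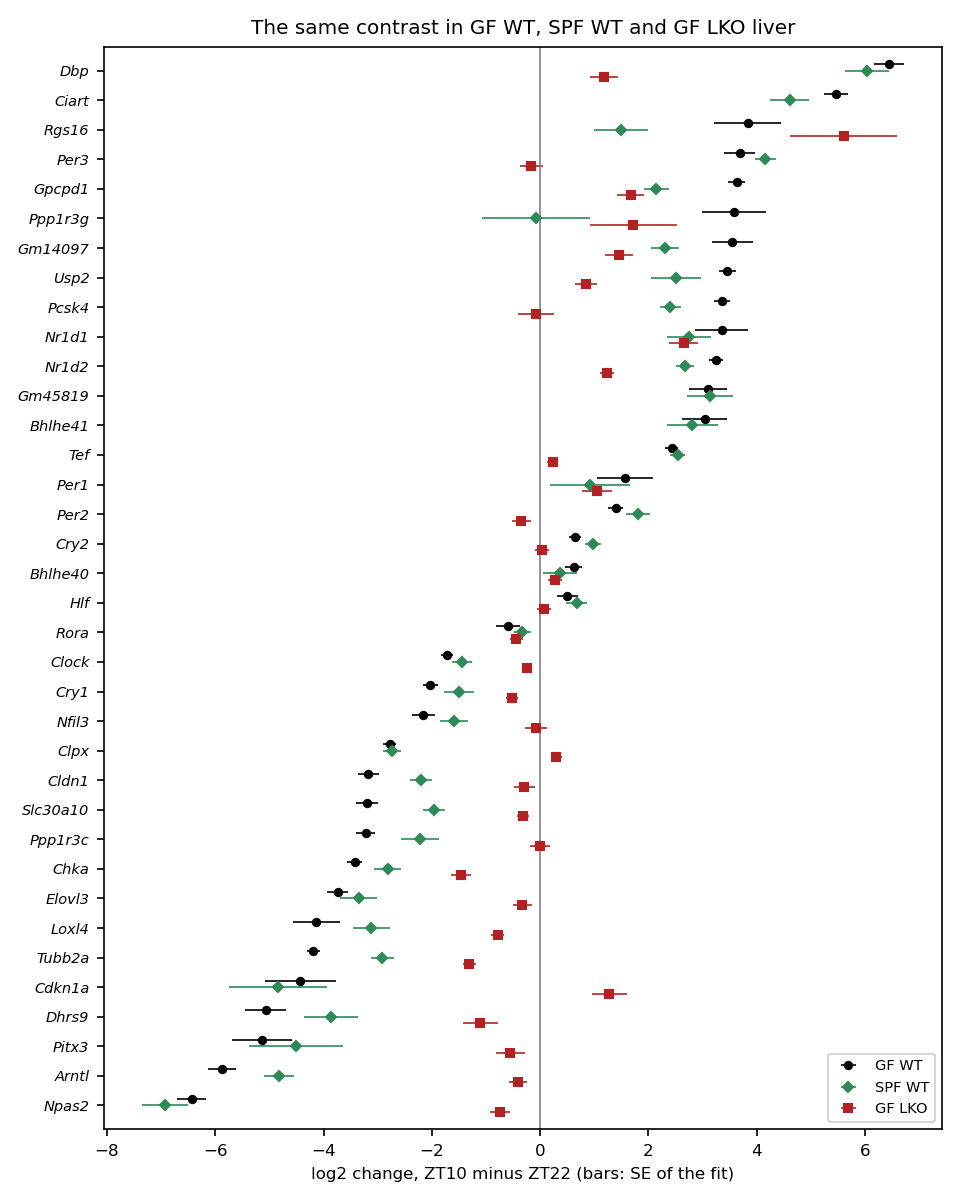
Log2 change of ZT10 over ZT22 with its SE for the clock genes and the genes with the largest changes, in GF WT (black circles), SPF WT (green diamonds) and GF LKO (red squares), each fitted on its own 6 libraries, in order of the change in GF WT. Ciart, Bhlhe41 and Gm45819 were not tested in GF LKO. Arntl and Npas2 sit at -0.41 and -0.74 in GF LKO and at -4.82 or below in both WT groups.

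The difference of the ZT10 to ZT22 change between GF WT and SPF WT was called for 0 of 13415 genes (0%) by edgeR, with 974 genes at an unadjusted p under 0.05 and a smallest adjusted p of 0.266, while DESeq2 called 27 and edgeR called 238 without the filter on low counts and 5 in a fit of 24 libraries. In SPF WT alone, 387 of 13101 genes were called (2.95%), and 309 of them were among the 1306 of GF WT (79.8% of the former and 23.7% of the latter), all 309 in the same direction. Of the GF WT calls, 1297 were tested in SPF WT and 1209 (93.2%) had the same sign there. In simulated data with a known 2-fold difference in this change between GF WT and SPF WT, the test of the difference recovered 53 of 200 genes, and 153 of 200 at 4-fold. Arntl changed by -4.82 ± 0.28 SE in SPF WT (difference -1.04 ± 0.44, adjusted p = 0.669), Dbp by 6.03 ± 0.41 (difference 0.42 ± 0.60, adjusted p = 0.901) and Per3 by 4.16 ± 0.20 (difference -0.45 ± 0.38, adjusted p = 0.821). Ppp1r3g changed by -0.07 ± 0.99 SE in SPF WT, and its difference of 3.67 ± 1.32 SE was not called (adjusted p = 0.649).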

How the data were processed

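Liver RNA of 6 GF WT mice, 3 at ZT10 and 3 at ZT22, was analysed from a table of 72 libraries, in which 0 sample columns were left unused. The authors deposited raw counts of reads per gene. Per the labels and the file header, stranded libraries were read from 1 end, aligned to mm10 with STAR 2.6.1b and counted by featureCounts 2.0.0 on Ensembl release 97 genes without strand and without reads that fitted several places or genes. No normalization had been applied. Of the 55573 genes listed, 55480 had an entry in GENCODE vM21 (GRCm38), which gave symbols and coordinates, and 55267 lay at the same place. No pair of libraries held equal counts.

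Changes were tested with edgeR 4.0.16 (R 4.3.3) on the 6 libraries (TMM scaling, filterByExpr, quasi-likelihood F test, Benjamini-Hochberg adjustment over all genes tested, threshold 0.05), and differences between groups as interactions on 12 libraries. SE is the log2 fold change divided by the root of F. CPM used TMM factors over all 72 libraries. On simulated counts of 12624 genes with 200 changed, 135 were recovered at 2-fold (22 others called) and 193 at 4-fold (20 others). At both folds the others were a larger share of the calls than the threshold of 0.05. For the difference from GF LKO, 80 and 167 of 200 were recovered. DESeq2 1.42.0, RLE scaling, no filter, more libraries, a replicate block, robust empirical Bayes, a fold threshold and leaving out each replicate served as alternatives. SPF WT and GF LKO were also fitted alone, a step added later.

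The lists, the members and the tests were chosen with earlier results of these data known. The text names up to 6 called genes a list by adjusted p, all genes of the 3 clock lists, the 12 largest increases and 12 largest decreases that were called, did not overlap and averaged 1 or more in log2 CPM, and the 6 smallest p for the difference from GF LKO. The difference from SPF WT had no call in the main fit, so the rule named no gene by its p. Where 5 or fewer members of a list were called in a direction, the rest were named after their values were seen (Lonrf3, Me1, Gpat4, Plin2, Plin5, Pemt, Ppara, Fgfr4, Abcc2, Cyp3a11, Cyp3a13, Glul, Slc7a2, Slc38a4 and Afmid), as was Hmgcs1. Some genes that the rule chose are not reported here. With 3 libraries a time, both counting error and the spread between mice limit precision, and some low genes rest on few counts (Npas2 on 7 in all at ZT10).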

Additional observations from a re-analysis of the deposited data

Results flagged for a closer look

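The change from ZT10 to ZT22 differed between GF WT and GF LKO by an interaction test for 270 genes. Those with the smallest p for it included Clpx, with a difference of -3.08 on the log2 scale, Tubb2a with -2.88, Arntl with -5.47, Npas2 with -5.70 and Tef with 2.19. A negative value means that the log2 change of ZT10 over ZT22 was more negative in GF WT than in GF LKO.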

How the results depend on the processing

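For ZT10 against ZT22, DESeq2 called 1514, RLE scaling 1294, the fit of 18 GF WT libraries 1349, that of 17 without replicate 3 of ZT6 1659, that of 12 libraries with SPF WT 1291 and robust empirical Bayes 1355. Without the filter on low counts 2047 genes were called, and 492 with a threshold of 1 log2 unit added. Leaving out 1 replicate gave 717 to 1289 calls. Replicate numbers were treated as names, not as pairs. Over all genes tested, deviations of same-numbered libraries correlated at 0.021, -0.025 and -0.115, which is below some pairs of different numbers (up to 0.168). Cdkn1a fell from replicate 1 to 3 at ZT2 (59.4, 14.8 and 6.93 CPM), ZT18 (58.3, 15.2 and 10.4 CPM) and ZT22, but not at ZT6, ZT10 or ZT14. Whether single genes share a factor by replicate number was not tested. The fit with the replicate number as a block called 1019, 952 of them called without it. For the difference from GF LKO, DESeq2 called 414, the fit without a filter 739, the replicate block 237, RLE scaling 262 and 24 libraries 313, and leaving out 1 replicate gave 179 to 302. For the difference from SPF WT, DESeq2 called 27, the fit without a filter 238 and the fit of 24 libraries 5 (Tubb2a, Tmem37 and Tmem150a among them, named after their values were seen), RLE scaling 0 and the replicate block 0, and leaving out 1 replicate gave 0 to 1 (Jund, without replicate 1 of GF WT at ZT10, also named after its value was seen). The cause of these shifts was not tested. Of 130 named genes that were called, 79 were called in all 14 alternatives, 25 lost the call in 1 to 3 and 26 in 4 or more, and 0 of 133 reversed. Without 1 replicate, 12 to 36 of the named calls were lost, the most without replicate 2 at ZT10. The 26 were Atg14, Bhlhe40, Bnip3l, Btg2, Cacybp, Calr, Ccne2, Cyp2e1, Cyp4a10, Dhcr7, Fech, Gsr, Ido2, Il1rn, Map1lc3b, Mt2, Pdk2, Pgk1, Phka2, Rpl32, Sds, Socs3, Sqstm1, Stip1, Tek and Usp18. Per1, Rora and Hlf, not called, gained a call in some alternatives. Of 46 named genes called in the difference from GF LKO, 39 were called in all 17 alternatives.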

Other observations

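Of the long intergenic RNAs tested, 28 were called higher at ZT22 and 9 at ZT10, and 196 were not called. Of the protein-coding genes, 619 and 604 were called in the same order and 10535 were not. The shares of all genes tested were 5.33% and 5.01%. These counts were not tested. The marker lists of other cells held no called gene apart from Tek, and their median log2 fold changes of ZT10 over ZT22 were -0.04 for 12 macrophage markers, -0.05 for 10 stellate cell markers, -0.30 for 6 bile duct markers, 0.23 for 7 lymphocyte markers, 0.20 for 3 neutrophil markers and -0.35 for 5 red blood cell markers tested. Of the 18 glucocorticoid-responsive genes, 3 were called in GF WT with a median of 0.16, and 6 in GF LKO alone with a median of 0.88, while the difference between the groups was called for 1 of them, Cdkn1a. The 15 immediate early genes had a median of 0.32 in GF WT and -0.70 in SPF WT, and the difference was called for 0 genes by edgeR, with 974 of all genes at an unadjusted p under 0.05 and 27 called by DESeq2.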
